A study of Homo sapiens with 12 samples.

Results

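The genes TYMS, RRM1, RRM2, TK1, DTYMK, DUT, CAD, UMPS and GART encode enzymes that make the nucleotides of DNA and RNA. These 9 genes were chosen by name, with earlier results of these data known, and each had 1 Ensembl identifier among the 59424 genes of both deposited tables. Their RNA was read in 12 RNA-seq libraries of prostate cancer cell lines, 3 in each of 4 groups that the labels call biological replicates. CWR22Rv1 cells received a control shRNA (Lenti-shControl, here shControl) or were knocked down for GALNT7 by shRNA (GALNT7 KD). DU145 cells received a control vector (Lenti-ORF control, here OE control) or a vector that overexpresses GALNT7 (GALNT7 OE). All were stable lines made by lentiviral transduction, so the controls of both cell lines carry a lentiviral construct as well. Whether each line is a pool or a clone, and whether the replicates come from separate transductions, is not given in the sources used here, so the p-values measure only the spread between these libraries. The comparisons ask which genes change when GALNT7, a Golgi enzyme that adds sugar to proteins, is lowered in CWR22Rv1 or raised in DU145 cells.

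Nucleotides are made either from small molecules (de novo) or by recovery of used bases and nucleosides (salvage). CAD carries out the opening steps of pyrimidine synthesis, UMPS the closing steps that give UMP, and GART several steps of purine ring synthesis. Ribonucleotide reductase, built from the large subunit RRM1 and the small subunit RRM2, turns ribonucleotides into the deoxyribonucleotides of DNA. Thymidylate is supplied by TYMS, which methylates dUMP, and by TK1, which phosphorylates salvaged thymidine, while DUT cleaves dUTP to dUMP and DTYMK carries dTMP on towards dTTP. TYMS, RRM2 and TK1 are known to be expressed mainly in dividing cells, and both TYMS and ribonucleotide reductase are targets of cancer drugs.

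GALNT7 OE libraries had higher levels of nearly the whole set than their control, while in GALNT7 KD libraries TYMS was the 1 gene of the 9 that passed the test. In DU145 cells 8 of the 9 genes rose, from 1.35-fold (CAD) to 4.03-fold (TK1), and UMPS did not pass the test. In CWR22Rv1 cells TYMS fell to 0.781 of its shControl level, and the other 8 genes had fold changes between 0.966 and 1.09 that did not pass. The test was limma on log2(normalised count + 1) within a cell line, and a call is a Benjamini-Hochberg adjusted p under 0.05 over all genes tested. Of all genes, 43.5% were called in overexpression (22.9% higher and 20.5% lower) and 9.06% in knockdown (5.28% higher and 3.79% lower). Set against these shares, 8 of 9 genes called higher in overexpression lies above the share of all genes, and 1 of 9 called in knockdown lies near it. This is a description with no test. The median log2 fold change of the 9 genes was 0.97 in overexpression, against -0.011 over the 18705 genes tested, and 0.011 in knockdown, against -0.0063 over 17906 genes. In these bulk samples a larger share of dividing cells and more RNA per cell cannot be told apart.

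The libraries held between 18364512 and 24356910 reads. GALNT7 itself, measured as a check, was lower in knockdown (log2 fold change -1.11, limma adjusted p=0.0051) and higher in overexpression (1.18, adjusted p=8.0e-05). The prostate kallikrein gene KLK2 had 904 to 1468 normalised counts in CWR22Rv1 and 0 to 1.01 in DU145 libraries, while KRT7, VIM and CAV1 were high in DU145 libraries only and the basal keratin KRT5 was at 0 in all 12. EGFR was high in both cell lines. Summed levels of 3 leukocyte genes stayed at or below 8.84 normalised counts, with CD3E at 0 in all 12 libraries, and those of the endothelial genes PECAM1 and VWF reached 3.87 in CWR22Rv1 libraries, 11.5 in the OE control and 51.4 in GALNT7 OE. The 3 fibroblast genes COL1A1, COL1A2 and DCN summed to between 43.9 and 111 in CWR22Rv1 libraries. In DU145 libraries they summed to 289 to 422 in the OE control and 55.4 to 155 in GALNT7 OE. Most of that sum was COL1A1 (53.6 to 419), while COL1A2 reached at most 4.20 and DCN at most 7.05. The part of these genes in the results was not tested.

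The promoters of the genes that moved together in DU145 cells are shown for the letters of motifs known from cell cycle genes. RefSeq (GRCh38.p14) gives 16 windows for the 9 genes, each from 250 bases before to 50 after a start site, and 35116 windows for all genes. Its start sites can lie inside the longer GENCODE genes given below. The motifs, read on both strands, were E2F (TTTCCCGC, TTTCGCGC, TTTGCCGC or TTTGGCGC), the NF-Y box CCAAT, the CHR element TTTGAA and the E-box CACGTG. The letters of no motif contain those of another, and a match is a description of the window, not of a bound factor. CCAAT was present in windows of 6 genes (RRM1, RRM2, TK1, DTYMK, CAD and GART), 9 of the 16 windows, and in 34.6% of all windows. Windows of a gene can overlap, so the 9 are not separate stretches. The GART windows chr21:33542843-33543142 and chr21:33542840-33543139 held the same boxes, and the RRM2 windows with a box overlapped. An E2F match was present for TYMS, DUT and GART, in 3 windows, and in 3.31% of all windows. The CHR letters were found for RRM1, DUT and UMPS, in 3 windows, against 15.2% of all windows, and CACGTG was in 0 of the 16 windows and in 7.26% of all. The stretches below give each motif in capitals with its flanks, 5′ to 3′ on the strand of the gene, for the genes with the highest fold changes and for the E2F matches near a start site. In 1 RRM2 window the box was present 3 times, beginning 123, 93 and 66 bases before that start site. A further CCAAT, not shown, began 249 bases before another annotated RRM2 start, and in TK1 both boxes lay on the opposite strand (ATTGG), 77 and 46 bases before the start.
RRM2 (chr2:10122604-10122632, plus strand): ggcaaggcgcagCCAATgggaagggtcgg
RRM2 (chr2:10122634-10122662, plus strand): ggcatggcacagCCAATgggaagggccgg
RRM2 (chr2:10122661-10122689, plus strand): ggggcaccaaagCCAATgggaagggccgg
TK1 (chr17:78187113-78187141, minus strand): ggccgggcgctgATTGGccccatggcggc
TK1 (chr17:78187082-78187110, minus strand): ggccggctcgtgATTGGccagcacgccgt
RRM1 (chr11:4094645-4094673, plus strand): gcatgtccatatCCAATggggcccatggg
DTYMK (chr2:241686891-241686919, minus strand): ccccggccccggCCAATcccttcgaattt
DTYMK (chr2:241686823-241686851, minus strand): tgttgacgccggCCAATgggagctccgga
TYMS (chr18:657603-657632, plus strand): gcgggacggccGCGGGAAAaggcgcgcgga
DUT (chr15:48332152-48332181, plus strand): ctgGCGGGAAAtttcggtTTTGGCGCgctc

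Of the 9 genes TK1 had the highest fold change in DU145 cells, ahead of RRM2 and TYMS. TK1 (ENSG00000167900, chromosome 17, 78174075 to 78187233, minus strand) had 1009, 941 and 912 normalised counts in the OE control and 4073, 3866 and 3599 in GALNT7 OE libraries. All 3 GALNT7 OE libraries therefore lay far above the highest control library. The log2 fold change was 2.01 (95% interval 1.85 to 2.17, limma adjusted p=4.0e-06), which placed TK1 176th from the top among the 18705 genes tested. In CWR22Rv1 cells the TK1 counts were 2351, 2286 and 2066 in shControl and 2103, 2016 and 2516 in GALNT7 KD libraries. These groups overlapped, with a log2 fold change of -0.019 (95% interval -0.25 to 0.21, adjusted p=0.93).

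TYMS (ENSG00000176890, chromosome 18, 657604 to 673578, plus strand) was the only gene of the 9 called in both cell lines. Its normalised counts were 1805, 1817 and 1759 in the OE control and 4726, 5046 and 5087 in GALNT7 OE libraries. The groups did not overlap, and the gain was 2.76-fold (log2 fold change 1.46, 95% interval 1.35 to 1.58, limma adjusted p=3.8e-06). In CWR22Rv1 cells it had 5368, 5575 and 5402 normalised counts in shControl and 4332, 4279 and 4152 in GALNT7 KD libraries. Every GALNT7 KD library lay below every shControl library, by much more than the spread within a group. TYMS fell by 0.36 on the log2 scale (standard error 0.041, 95% interval -0.46 to -0.26, limma adjusted p=0.0053), and its log2 fold change lay between -0.38 and -0.34 in all 16 other fits.

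DUT (ENSG00000128951, chromosome 15, 48331011 to 48343373, plus strand) rose 1.70-fold, from 1311, 1271 and 1017 in the OE control to 2001, 1838 and 2261 normalised counts in GALNT7 OE libraries (log2 fold change 0.76, 95% interval 0.48 to 1.05, limma adjusted p=0.0023). DTYMK (ENSG00000168393, chromosome 2, 241675742 to 241686991, minus strand) had 395, 427 and 389 normalised counts in the OE control and 811, 766 and 798 in GALNT7 OE. The latter is a 1.96-fold gain with a narrow spread in both groups (log2 fold change 0.97, limma adjusted p=9.6e-05). In knockdown both enzymes overlapped between the groups, with log2 fold changes of -0.027 for DUT (95% interval -0.30 to 0.24) and -0.050 for DTYMK (95% interval -0.24 to 0.14). DUT counts there spread from 1731 to 2210 within GALNT7 KD, so a fold change of DUT was bounded less tightly than that of any other of the 9 genes.

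Both subunits of ribonucleotide reductase rose in DU145 cells, the small subunit by more. RRM2 (ENSG00000171848, chromosome 2, 10120698 to 10131419, plus strand) had 1707, 1821 and 1589 normalised counts in the OE control and 5018, 4951 and 4790 in GALNT7 OE libraries, a log2 fold change of 1.53 (95% interval 1.39 to 1.67, limma adjusted p=7.0e-06). RRM1 (ENSG00000167325, chromosome 11, 4094707 to 4138876, plus strand) went from 1753, 1739 and 1512 to 3549, 4058 and 4104, a log2 fold change of 1.23 (95% interval 1.03 to 1.43, adjusted p=6.0e-05). Neither gene had a GALNT7 OE library within the control range. The ratio of RRM2 to RRM1 normalised counts, which is not corrected for length and is used only for its change, was 0.973, 1.05 and 1.05 in the OE control and 1.41, 1.22 and 1.17 in GALNT7 OE. All GALNT7 OE ratios were higher, by 0.30 on the log2 scale (p=0.1 in a two-sided exact permutation test, which cannot go lower with 3 libraries a group). In knockdown the ratios were 0.944, 0.967 and 0.808 in shControl and 1.03, 0.856 and 0.937 in GALNT7 KD, which overlapped (two-sided exact permutation test, p=0.7). The subunits themselves also overlapped there, with log2 fold changes of 0.090 for RRM2 (95% interval -0.045 to 0.23, limma adjusted p=0.37) and 0.035 for RRM1 (95% interval -0.12 to 0.19, adjusted p=0.78).

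Among the 9 genes, the 3 de novo enzymes moved less in DU145 cells than the other 6. Their median log2 fold changes were 0.59 and 1.35, a description with no test. The wider lists of such genes given below did not share this order. Medians there were 0.69 for purine de novo, 0.75 for pyrimidine de novo and 0.56 for the other deoxynucleotide and thymidylate genes. GART (ENSG00000159131, chromosome 21, 33503931 to 33543491, minus strand) had 2485, 2582 and 2525 normalised counts in the OE control and 4096, 4198 and 4170 in GALNT7 OE libraries, a 1.64-fold gain (log2 fold change 0.72, 95% interval 0.62 to 0.81, limma adjusted p=2.9e-05). In overexpression GART had the tightest interval of the 9 genes. CAD (ENSG00000084774, chromosome 2, 27217390 to 27243943, plus strand) had 2714, 2803 and 3166 in the OE control and 4488, 3841 and 3423 in GALNT7 OE. The groups lay next to each other without overlap, and the log2 fold change was 0.43 (95% interval 0.18 to 0.69, limma adjusted p=0.016). This call was lost without OE control replicate 1 (adjusted p=0.056) or replicate 2 (adjusted p=0.053), and with the libraries rescaled to their 75th percentile (log2 fold change 0.33, adjusted p=0.0501) or quantile normalised (adjusted p=0.054). That rescaling also moved the calls over all genes from 4290 higher and 3842 lower to 3380 higher and 4736 lower.

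UMPS (ENSG00000114491, chromosome 3, 124730366 to 124749273, plus strand) had 567, 543 and 524 normalised counts in the OE control and 980, 1001 and 558 in GALNT7 OE libraries. GALNT7 OE replicate 3 lay inside the control range while the other libraries of its group lay far above it. The log2 fold change was 0.59 (95% interval 0.064 to 1.11, limma adjusted p=0.069). Without that library it was 0.86 (adjusted p=7.4e-04), so the call depended on this library. It also depended on the method. With all libraries kept, UMPS passed in DESeq2 (adjusted p=0.016) and in limma with a replicate block (adjusted p=0.049). In the other 8 genes GALNT7 OE replicate 3 lay above every control library.

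**Figure D1:**
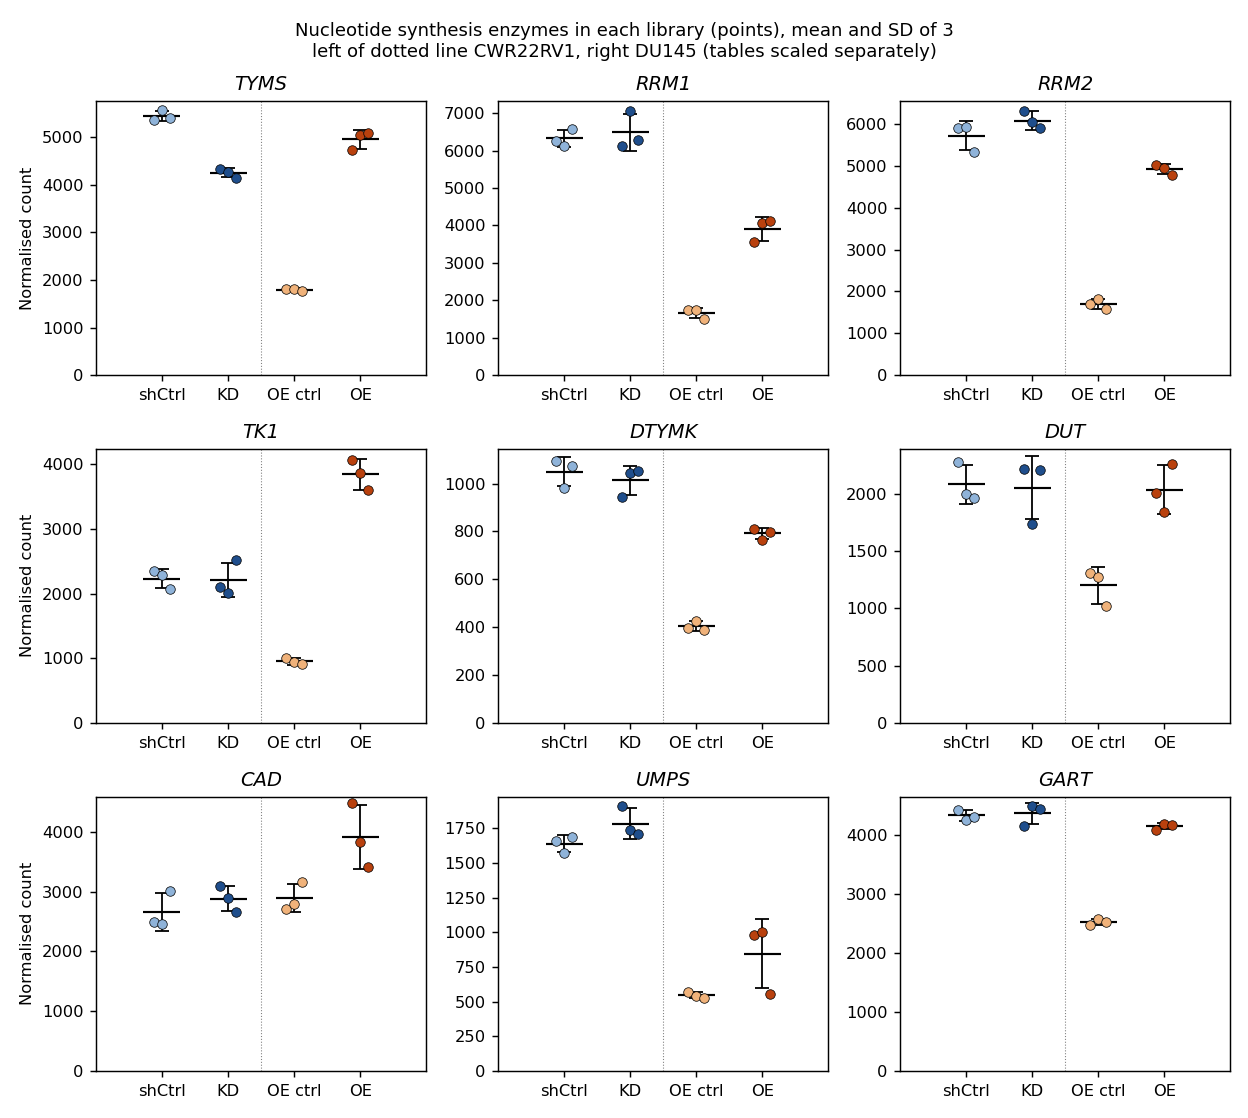
Normalised counts of the 9 nucleotide synthesis enzymes, 1 panel a gene with an axis from 0; each point is a library, and bars give the mean and SD of 3 libraries for shControl, GALNT7 KD, OE control and GALNT7 OE. TYMS is the gene whose knockdown points drop below the shControl points, from 5368 or more to 4332 or less, and in UMPS the GALNT7 OE point at 558 sits with the controls.

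In knockdown 0 of the 3 de novo enzymes passed in limma, edgeR or DESeq2 or at an unadjusted p under 0.05. Of all 17906 genes tested there, limma called 9.06%, edgeR 1546 genes and DESeq2 2666. For 3 genes a count of 0 lies near these shares. CAD had 2499, 2467 and 3020 normalised counts in shControl and 3095, 2888 and 2669 in GALNT7 KD (log2 fold change 0.12, 95% interval -0.11 to 0.35). GART had 4440, 4270 and 4312 against 4169, 4507 and 4453 (log2 fold change 0.011, 95% interval -0.10 to 0.13). Both overlapped between the groups. UMPS had 1657, 1571 and 1688 in shControl and 1909, 1736 and 1708 in GALNT7 KD, which did not overlap, but the difference did not pass over all genes (log2 fold change 0.12, 95% interval -0.038 to 0.28, limma adjusted p=0.31). At an unadjusted p under 0.05, TYMS remained the 1 gene of the 9 past the threshold in knockdown, and all 9 were past it in overexpression. Of all genes, 4675 of 17906 were past it in knockdown and 9677 of 18705 in overexpression.

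**Figure D2:**
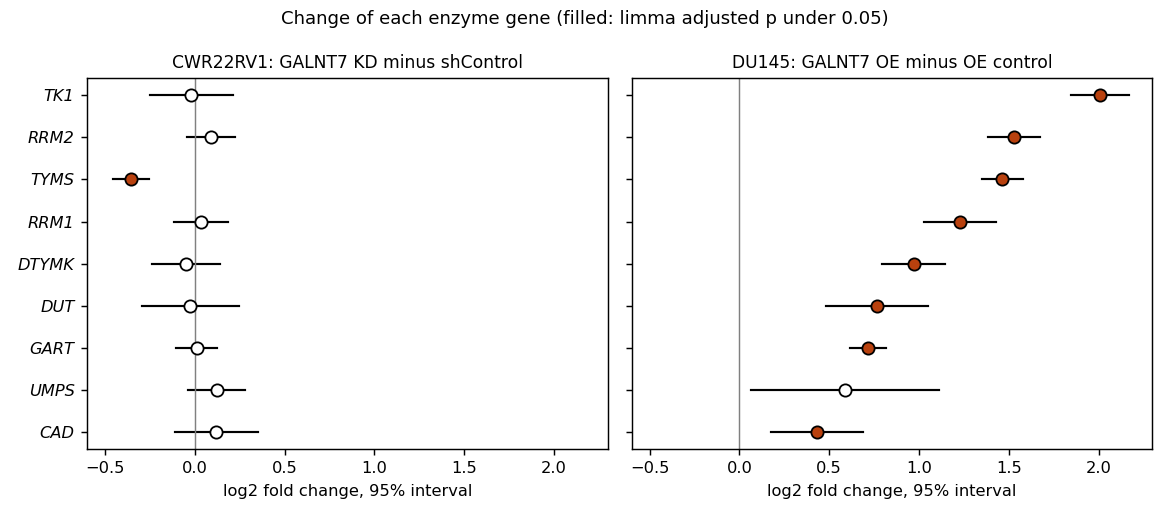
Log2 fold change of each enzyme gene (point) with its 95% interval (line) in CWR22Rv1 cells (GALNT7 KD minus shControl) and DU145 cells (GALNT7 OE minus OE control); filled points have a limma adjusted p under 0.05. In knockdown the filled point is TYMS at -0.36, and in overexpression the points run from CAD at 0.43 to TK1 at 2.01, with UMPS open at 0.59.

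Together the 9 genes took 0.0603% to 0.0630% of the reads in the OE control and 0.126% to 0.132% in GALNT7 OE libraries. In CWR22Rv1 cells they took 0.158% to 0.161% in shControl and 0.158% to 0.160% in GALNT7 KD libraries. The GALNT7 OE share was thus above its control in every library, while the ranges of the CWR22Rv1 groups overlapped.

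Levels between genes were compared as normalised counts per kilobase of annotated exon. TYMS was highest in shControl (2206), followed by RRM1 (1514), TK1 (1201) and RRM2 (1074), with UMPS lowest (216). TK1 and RRM2 overlapped between libraries, as did DUT (566) and GART (560). In GALNT7 KD, TYMS (1722) overlapped with RRM1 (1553), so TYMS no longer stood clear of the next gene with this length. In the OE control TYMS (726) and TK1 (513) stood clear at the top, the neighbours RRM1, CAD, GART, DUT and RRM2 (399 to 320) each overlapped with the next, and DTYMK (165) and UMPS (71.9) were lowest. In GALNT7 OE the top 2 were TK1 (2067) and TYMS (2005), which overlapped, and RRM2 (924) ranked above CAD (465) where it had ranked below it in the control. With the length of the longest transcript in place of the exon union, only 16 of the 36 ranks stayed the same, so the order rests on the length used. With that length TYMS (2560) stood clear of RRM1 (2049) in GALNT7 KD. In GALNT7 OE it was TYMS (2980) that ranked above TK1 (2288). RRM2 (464) already ranked above CAD (398) in the OE control, though these overlapped. The changes of order named above were thus not seen with that length.

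**Figure D3:**
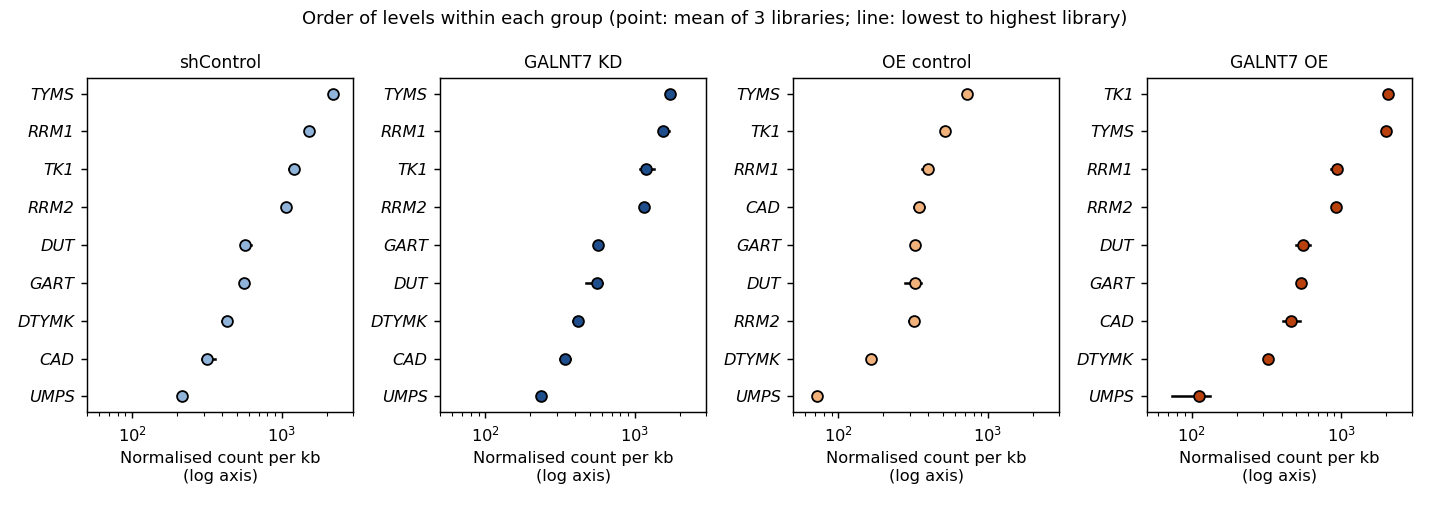
Normalised count per kilobase of exon (log axis) of the 9 genes within each group, ordered from highest to lowest; points are means of 3 libraries and lines run from the lowest to the highest library. UMPS is lowest in all 4 groups, from 71.9 in the OE control to 235 in GALNT7 KD. TK1 overtakes TYMS in the mean of GALNT7 OE, which was not seen with the length of the longest transcript.

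Several of the 9 genes overlap other genes, and the strand setting used in counting is not given in the sources used here, so reads on shared exons are uncertain. ENOSF1, on the strand opposite to TYMS and sharing 967 exon bases with it, had 1114, 1040 and 1116 normalised counts in shControl and 899, 853 and 866 in GALNT7 KD (log2 fold change -0.32, limma adjusted p=0.032). Its fall in knockdown was close in size to that of TYMS. The ratio of TYMS to ENOSF1 overlapped between the groups there, with a log2 difference of -0.037 (two-sided exact permutation test, p=0.6). The call of ENOSF1 was lost when any of the 6 libraries was left out (adjusted p up to 0.12). In DU145 cells the neighbours went opposite ways, since ENOSF1 fell from 1097, 1083 and 1076 to 789, 886 and 835 (log2 fold change -0.38, limma adjusted p=0.0038). TYMSOS, a noncoding RNA of the opposite strand at the TYMS promoter, rose in DU145 cells (log2 fold change 0.79, adjusted p=9.8e-04) and did not pass in knockdown (-0.092, adjusted p=0.82).

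For RRM2, the gene AC007240.1 shares 1077 exon bases on the same strand and reached at most 1.61% of the RRM2 count. It had 95.2, 84.0 and 83.3 normalised counts in shControl and 47.4, 59.7 and 54.9 in GALNT7 KD, a log2 fold change of -0.69 (limma adjusted p=0.048). In DU145 cells it had only 7.64, 5.11 and 6.05 in the OE control and 27.1, 9.24 and 26.2 in GALNT7 OE. The log2 fold change there was 1.46 (limma adjusted p=0.042), with control counts close to the minimum mean of 5 set for testing. The call in knockdown was lost when any of the 6 libraries was left out (adjusted p up to 0.15), and that in overexpression when any but GALNT7 OE replicate 2 was (adjusted p up to 0.13). SON shares 275 exon bases with GART on the opposite strand and reached 198% of the GART count in CWR22Rv1 and 300% in DU145 libraries. It was not called in either cell line (log2 fold change -0.058 in knockdown and 0.20 in overexpression). Its part in the GART reads was not tested. The 13 annotated pseudogenes named after the 9 genes had at most 3.70 normalised counts, or 0.19% of the count of their parent gene.

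The other genes of nucleotide metabolism, a list of 45 sorted by role, were also called mainly in DU145 cells. So were genes as a whole, with 43.5% called in overexpression and 9.06% in knockdown. In overexpression 29 of 44 tested rose and 7 fell, with a median log2 fold change of 0.49. In knockdown 4 of 43 rose and 0 fell in limma and in edgeR, with a median of 0.090. DESeq2 called 7 higher and 3 lower there, and 10 and 6 had an unadjusted p under 0.05 in limma. Of the 17906 genes tested in knockdown, DESeq2 called 1490 higher and 1176 lower. In limma 4675 of them had an unadjusted p under 0.05 in either direction. Over all genes, limma called 22.9% higher and 20.5% lower in overexpression, and 5.28% and 3.79% in knockdown. Among partners of the thymidylate and deoxynucleotide enzymes, 4 of the 5 tested in DU145 cells rose. RRM2B, an alternative small subunit of the reductase, rose by less than RRM2 (log2 fold change 0.67, adjusted p=0.0084), and the RRM2 to RRM2B ratio of normalised counts went from 2.47, 2.45 and 2.17 to 4.22, 3.60 and 5.19 (two-sided exact permutation test, p=0.1). TK2, the mitochondrial thymidine kinase, did not pass, with a log2 fold change of -0.14 (95% interval -0.42 to 0.13, adjusted p=0.36). In knockdown 0 of these 6 genes passed in limma or edgeR, although 5 were lower at an unadjusted p under 0.05. The largest of these differences was that of TK2 (log2 fold change -0.38, limma adjusted p=0.059). In limma TK2 passed narrowly under 3 alternatives, with 75th percentile scaling (adjusted p=0.0489), a minimum mean of 50 (adjusted p=0.0477) and quantile normalisation (adjusted p=0.0492). TK2 and SHMT1, which supplies methyl donors for TYMS, were lower in DESeq2 (adjusted p=0.0093 and 0.014).

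In the purine de novo route, 11 of 13 genes rose in DU145 cells and 1 fell. The shares of all genes called higher and lower were 22.9% and 20.5% there, and 5.28% and 3.79% in knockdown. PAICS, which acts within the same route as GART, went from 3815, 3782 and 3859 to 7766, 8273 and 8488 normalised counts (log2 fold change 1.10, limma adjusted p=7.4e-06). PPAT, which commits the route, rose by 0.73 on the log2 scale (adjusted p=2.3e-04). The gene that fell was ADSS1, an adenylosuccinate synthase (log2 fold change -0.50, adjusted p=0.024), a call lost with any library left out except GALNT7 OE replicate 1 (adjusted p up to 0.074). In knockdown PPAT was the 1 gene of this route to pass, with 1615, 1657 and 1726 in shControl and 2479, 2200 and 1975 normalised counts in GALNT7 KD (log2 fold change 0.41, adjusted p=0.039). That call was lost when any library but GALNT7 KD replicate 3 was left out (adjusted p up to 0.13).

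In DU145 cells, where 22.9% of all genes were called higher, 5 of 6 genes of the pyrimidine de novo route rose. They included DHODH, which acts between CAD and UMPS (log2 fold change 0.58, limma adjusted p=0.0092), CTPS1, which makes CTP (1.04, adjusted p=5.9e-05), and NME1, a nucleoside diphosphate kinase (1.30, adjusted p=7.1e-06). NME1 had the highest change of the 45 genes, and it shares exons with a readthrough gene, NME1-NME2, itself higher by 1.41 on the log2 scale, so that their reads could be split. In knockdown NME1 and CMPK1, the UMP/CMP kinase, were higher (log2 fold changes 0.24 and 0.40, adjusted p=0.037 and 0.0087). The NME1 call was lost when any of the 6 libraries was left out (adjusted p up to 0.12), and that of CMPK1 was kept in all 16 other fits.

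Salvage enzymes were mainly higher in DU145 cells, with 6 of 9 called higher and 1 lower. Of all genes, 22.9% were called higher there and 20.5% lower. DCK, the deoxycytidine kinase, had 384, 431 and 359 normalised counts in the OE control and 525, 770 and 726 in GALNT7 OE (log2 fold change 0.77, limma adjusted p=0.0073). The lower gene was UCKL1, a uridine-cytidine kinase relative, with a log2 fold change of -0.91 (adjusted p=8.2e-04). In knockdown 0 of the 9 salvage genes passed in limma or edgeR, and UCK1, the 1 gene at an unadjusted p under 0.05, passed in DESeq2 (log2 fold change -0.37, adjusted p=0.048). Of all genes, 9.06% were called there in limma, and 4675 of 17906 had an unadjusted p under 0.05.

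Genes of nucleotide breakdown formed the only role in which more genes fell than rose in DU145 cells, with 5 of 11 lower and 3 higher, where 20.5% of all genes were called lower and 22.9% higher. XDH, which makes uric acid, went from 190, 102 and 118 to 40.1, 38.8 and 26.2 normalised counts (log2 fold change -1.91, limma adjusted p=0.0019). DPYD, which degrades uracil and thymine, went from 189, 223 and 204 to 60.1, 65.6 and 47.2 (log2 fold change -1.82, adjusted p=1.9e-04). TYMP, which splits thymidine, went from 881, 879 and 829 to 359, 265 and 296 (log2 fold change -1.50, adjusted p=1.1e-04). In each of these genes every GALNT7 OE library lay below every control. CDA, which deaminates cytidine, fell by 1.23 on the log2 scale (adjusted p=1.4e-05), and SAMHD1, which destroys dNTPs, fell by 0.58 (adjusted p=6.6e-04). The higher genes were UPP1, a uridine phosphorylase (log2 fold change 0.71, limma adjusted p=0.0010), DCTPP1, a dCTP pyrophosphatase (0.71, adjusted p=2.0e-04), and NT5C, a nucleotidase (0.25, adjusted p=0.029). In knockdown ADA, the adenosine deaminase, rose from 39.2, 45.1 and 44.9 to 109, 94.9 and 118 normalised counts (log2 fold change 1.30, adjusted p=0.0070), the 1 call of limma and of edgeR among the 9 tested. DESeq2 called 4 higher, and 5 were higher at an unadjusted p under 0.05 in limma. Of the 17906 genes tested in knockdown, limma called 5.28% higher and DESeq2 called 1490 higher. An unadjusted p under 0.05 in limma, in either direction, was reached by 4675. The genes DESeq2 added were TYMP (limma log2 fold change 0.67, DESeq2 adjusted p=0.037), DPYD (0.55, adjusted p=0.023) and DCTPP1 (0.19, adjusted p=0.016). TYMP and DPYD thus lay higher in GALNT7 KD libraries and lower in GALNT7 OE libraries than in their controls. Neither passed in limma in knockdown (adjusted p=0.068 and 0.066). DCTPP1 and UPP1 lay higher in both comparisons, with limma log2 fold changes of 0.19 and 0.50 in knockdown. ADA did not pass in overexpression (-0.065, limma adjusted p=0.73). Of the 9 tested, 0 were lower by limma, edgeR, DESeq2 or an unadjusted p under 0.05.

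**Figure D4:**
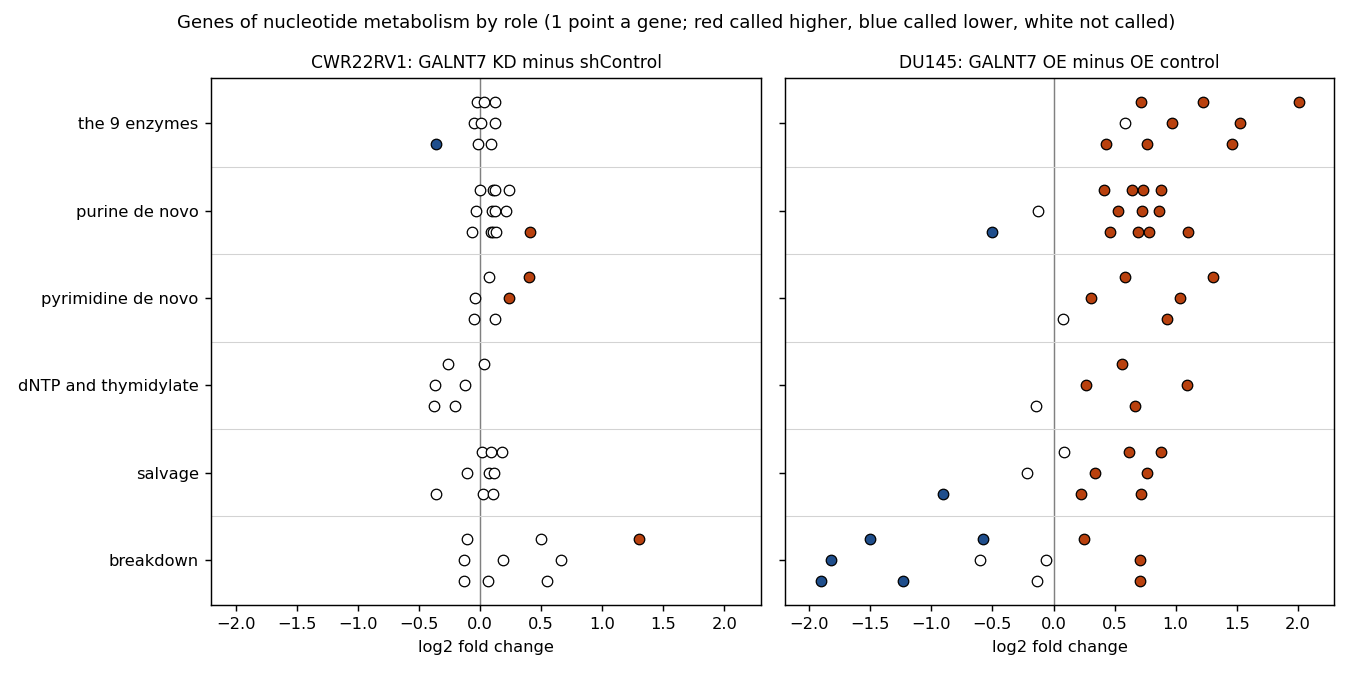
Log2 fold changes of the 9 enzymes and of the other genes of nucleotide metabolism by role, 1 point a gene, in knockdown and in overexpression; red points were called higher, blue lower and white not called, and vertical offsets within a row only separate points. In overexpression the synthesis rows lie mainly to the right of 0 and the breakdown row reaches -1.91 (XDH), while in knockdown most points are white and close to 0.

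Genes known as marks of dividing cells moved with the 9 enzymes in DU145 cells. MKI67 (log2 fold change 1.92), TOP2A (1.64), CCNA2 (1.98), CDK1 (2.18), PCNA (1.04) and MCM2 (0.57) were all called higher in limma, with adjusted p of at most 0.0035. In these cells 22.9% of all genes were called higher, and in knockdown 9.06% of all genes were called in either direction. In knockdown 0 of the 6 passed in limma or edgeR, with log2 fold changes from -0.30 (MCM2, adjusted p=0.13) to 0.054 (MKI67), although MCM2 passed in DESeq2 (adjusted p=0.044) and without GALNT7 KD replicate 3 (adjusted p=0.039). The part of these genes' change in that of the enzymes was not tested.

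The median profile of the 9 genes, with each gene's log2 level centred on the control mean of its cell line, lay between -0.046 and 0.054 in CWR22Rv1 libraries, between -0.055 and 0.029 in the OE control and between 0.92 and 1.01 in GALNT7 OE. DTYMK lay closest to it, with a root mean square difference of 0.046 over the 12 libraries, and TK1 farthest, with 0.53. Among 11807 genes with a mean of at least 50 normalised counts in both tables, the closest were PPIH (0.044), AARS (0.053), FBL (0.058), YBX1 (0.060) and NME2 (0.062). The log2 fold changes of these 5 genes lay between 0.93 and 1.03 in overexpression and between -0.059 and 0.044 in knockdown. The likeness is a description over 12 libraries that share their groups.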

How the data were processed

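RNA was extracted with an RNeasy kit, and libraries were made from polyadenylated RNA with a stranded kit, per the labels. The submitters' processing notes name FastQC, Salmon, DESeq2, R 3.5.3 and hg38 without their order; the Salmon settings, strand option and annotation release are not given in the sources used here. The values deposited are a normalised signal: the authors divided the reads of each gene in a library by 1 size factor, and the 2 tables were scaled separately. Dividing by the value of 1 read gave whole numbers (within 0.001) for 100% of values, although in OE control replicate 3 and GALNT7 OE replicate 1, with size factors of 0.993 and 0.998, that value is hard to tell from rounding. Counting precision therefore rests on 18364512 to 24356910 reads a library.

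Genes whose normalised counts averaged 5 or more in the 6 libraries of a cell line were tested with limma 3.58.1 (lmFit, eBayes with trend, R 4.3.3) on log2(normalised count + 1), with Benjamini-Hochberg adjustment over all genes and a threshold of 0.05. All 9 enzymes passed that filter in both tables. A fold change on this scale understates that of genes with few reads. Intervals are at 95%, and ratios were compared by exact permutation tests. The alternatives were pseudocounts of 0.5 and 5, no filter and a minimum mean of 50, rescaling to the 75th percentile, quantile normalisation, eBayes without trend, the replicate number as a block, a threshold of 0.01, each replicate left out, and edgeR 4.0.16 and DESeq2 1.42.0 on the recovered reads. The fits were also run on simulated counts with the same dispersion for every gene. That run checks the code and does not bear on the calls in these libraries. No replicate pair differed by as little as sampling noise (mean chi-square per gene at least 9.44).

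Names, positions and lengths are those of GENCODE 29, which holds 94.4% of the identifiers. The genes named are the 9 enzymes, GALNT7, fixed partner enzymes, the 3 highest and 3 lowest called genes of the 45 others in each comparison, 6 proliferation genes, pseudogenes and overlapping genes, and the 5 genes of nearest profile. ADSS1, UCKL1, CDA, SHMT1, UCK1, NT5C, UPP1, DCTPP1 and the readthrough gene lie outside that rule and were named after their values were seen. Members and lists were chosen with earlier results of these data known. Protein sequences were not used here. Some named or marker genes are counted in the totals but their values are not reported here.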

Additional observations from a re-analysis of the deposited data

How the results depend on the processing

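Of the 9 enzymes, TYMS kept its call in knockdown and TK1, RRM2, TYMS, RRM1, DTYMK, DUT and GART kept theirs in overexpression under all 16 other fits, with adjusted p of at most 0.044 and 0.011. CAD lost its call under 4 fits (log2 fold change 0.33 to 0.41). UMPS gained one in overexpression with DESeq2 (adjusted p=0.016), with a replicate block (adjusted p=0.049) and without GALNT7 OE replicate 3. Left-out replicates gave 7 to 9 called enzymes in overexpression and 1 in knockdown.

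In knockdown 5 of the 8 uncalled enzymes changed sign in some fit, while RRM2 (0.040 to 0.12), CAD (0.067 to 0.21) and UMPS (0.072 to 0.15) stayed above 0 in all 16. GART was -0.011 after rescaling to the 75th percentile and -0.0063 after quantile normalisation, and with a replicate left out it ranged from -0.011 to 0.046, RRM1 from -0.027 to 0.076, TK1 from -0.12 to 0.044, DTYMK from -0.098 to 0.0014 and DUT from -0.086 to 0.090. The other pathway genes called in knockdown numbered 10 with DESeq2, 2 without the trend, 2 with a replicate block, 2 at a threshold of 0.01 and 2 to 3 with a replicate left out. Over all genes in knockdown the count was 2666 with DESeq2, 996 without the trend, 1002 with a replicate block, 392 at a threshold of 0.01, and 539 (without GALNT7 KD replicate 1) to 1336 (without GALNT7 KD replicate 3) with a replicate left out, and leaving out any library but the latter lowered it by over 1.5 times. In overexpression it was 5303 at a threshold of 0.01. The median log2 fold change of the 9 enzymes there was 0.87 after rescaling to the 75th percentile, a setting that shifted the median of all genes by -0.097, and the order of levels kept 16 of 36 ranks with another length.

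Same-numbered libraries correlated by -0.011, 0.075 and -0.0057 in CWR22Rv1 and by 0.043, 0.043 and 0.016 in DU145 cells (deviations from group means across genes). Each DU145 library correlated best with its own number, and this did not hold in CWR22Rv1 cells, so the numbers were not taken as pairs. The replicate block ended the calls of PPAT, NME1, ENOSF1 and AC007240.1 in knockdown (adjusted p=0.076, 0.068, 0.062 and 0.11) and of NT5C in overexpression (0.061). With 3 libraries a group no permutation p can be below 0.1.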
